A study of Mus musculus with 9 samples.

Results

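NF-kappaB is a family of transcription factors that carries inflammatory signals to the nucleus, and 10 of its subunits, feedback regulators and targets were followed by name in RNA from sorted mouse hippocampal cells. They were the 5 Rel-domain subunits Rela, Relb, Rel, Nfkb1 and Nfkb2, the inhibitors Nfkbia, Nfkbie and Nfkbiz, the ubiquitin-editing enzyme Tnfaip3, and the cytokine Tnf. All 10 were found by symbol among 51912 Ensembl genes. The cells came from male C57BL/6 mice carrying Cre recombinase under the Camk2a promoter, which is active in forebrain excitatory neurons. A recombinant adeno-associated virus of serotype 5 carried a Cre-dependent gene for mCherry, a red fluorescent protein, and fluorescent cells were sorted from the hippocampus 3 weeks after injection. The study used doses of 2.88e+08, 2.88e+09 and 2.88e+10 vector genomes, the lowest serving as its control, in 3 groups of 3 biological replicates. Every group therefore carried both the Cre transgene and the vector. Whether a library came from 1 animal or several, and the age of the mice, are not stated in the labels.

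The labels of the single libraries give no dose, so none was assigned to a group. No test between letters was run, and each library has its own value, summarised at most by a range or a median over libraries of 1 letter. The deposited tables carry the letters H, M or L and a number from 1 to 3 in their names and column headers. These letters are used here as names, and the libraries H1 to H3, M1 to M3 and L1 to L3 are set side by side. What the letters stand for is not explained in the labels, and no dose is read from them.

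In cells at rest, dimers of Rel-domain subunits are held in the cytoplasm by inhibitors of the IkappaB family. A signal such as tumour necrosis factor activates IkappaB kinases, the inhibitor is degraded, and the dimer enters the nucleus and binds kappaB sites. Among its targets are the genes of its own inhibitors, so that Nfkbia, Nfkbie and Tnfaip3 form negative feedback loops. In the brain the pathway is known best for its strong induction in microglia and macrophages, while neurons and astrocytes use it as well.

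Total counts ranged from 12136830 to 13105465 in the H libraries, from 13424364 to 19151596 in the M libraries and from 15371545 to 16937257 in the L libraries. The 8 excitatory neuron markers checked summed to 5065 to 5304 CPM in H, 3093 to 3321 CPM in M and 5762 to 7701 CPM in L libraries (CPM, a count relative to its library's scaled total). The neuronal label therefore has its markers in every library, but markers of other cells were present too. The 13 markers of microglia and macrophages summed to 17380 to 18820 CPM in H, 5026 to 6375 CPM in M and 27.7 to 153 CPM in L libraries, and no marker was at 0 in all libraries of a letter. The 7 markers of border macrophages summed to 399 to 406 CPM in H, 1588 to 2245 CPM in M and 2.22 to 17.0 CPM in L libraries. The 7 plasma and B cell markers summed to 3233 to 3360 CPM in H, 4.14 to 6.34 CPM in M and 0.863 to 1.28 CPM in L libraries, with Mzb1 at 0 throughout M and Cd79b and Ms4a1 at 0 throughout L. The 7 T cell markers summed to 30.9 to 34.2 CPM in H, 14.2 to 24.1 CPM in M and at most 0.487 CPM in L libraries. The M sums were nearly all Cd4, at 20.5, 23.9 and 13.6 CPM in M1 to M3, while Cd3e, Cd3d and Cd2 were at 0 throughout M and L. Oligodendrocyte markers summed to 597 to 621 CPM in H, 93.5 to 156 CPM in M and 31.2 to 60.4 CPM in L libraries. Astrocyte markers summed to 189 to 199 CPM in H, 157 to 265 CPM in M and 83.6 to 151 CPM in L libraries. Inhibitory neuron markers summed to 213 to 244 CPM in H, 623 to 1000 CPM in M and 299.6 to 1354 CPM in L libraries. Endothelial markers stayed at or under 10.7 CPM and neutrophil markers at or under 0.307 CPM in any library. The part of these other cells in the levels below was not tested, and in bulk RNA fewer cells of a type and less RNA per cell cannot be told apart. The 3 H libraries were also more alike than those of the other letters. Their counts differed pairwise by a chi-square of 2.68 to 5.14 per degree of freedom, against 24.3 to 33.6 among M and 27.2 to 38.9 among L libraries, so every pair differed by more than sampling noise (1 per degree of freedom).

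All 10 genes were higher in each of the 3 H libraries than in any of the 6 others, and 9 were also higher in each M library than in any L library. The exception to the second statement was Relb. Of all 14787 genes that averaged 1 CPM or more, 12.7% had all H libraries above all others, 17% had all M above all L, and 5.93% had the whole order of H above M above L that 9 of the 10 showed. The distance between libraries differed widely among the genes. Between the highest and the lowest library, 8 of the 10 differed at least 4-fold on the log2(CPM + 1) scale, against 15.5% of genes, and the median range was 4.35 log2 units, against 1.04 over all genes. Rela, at 1.97 log2 units, lay just under that threshold, Relb at 1.58 was next, and Nfkb1 at 2.94 was the nearest above it. All 10 averaged 1 CPM or more, but Rel, Nfkb2, Nfkbie and Tnf fell below 1 CPM in 1 to 3 L libraries and passed through their higher levels elsewhere.

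**Figure D1:**
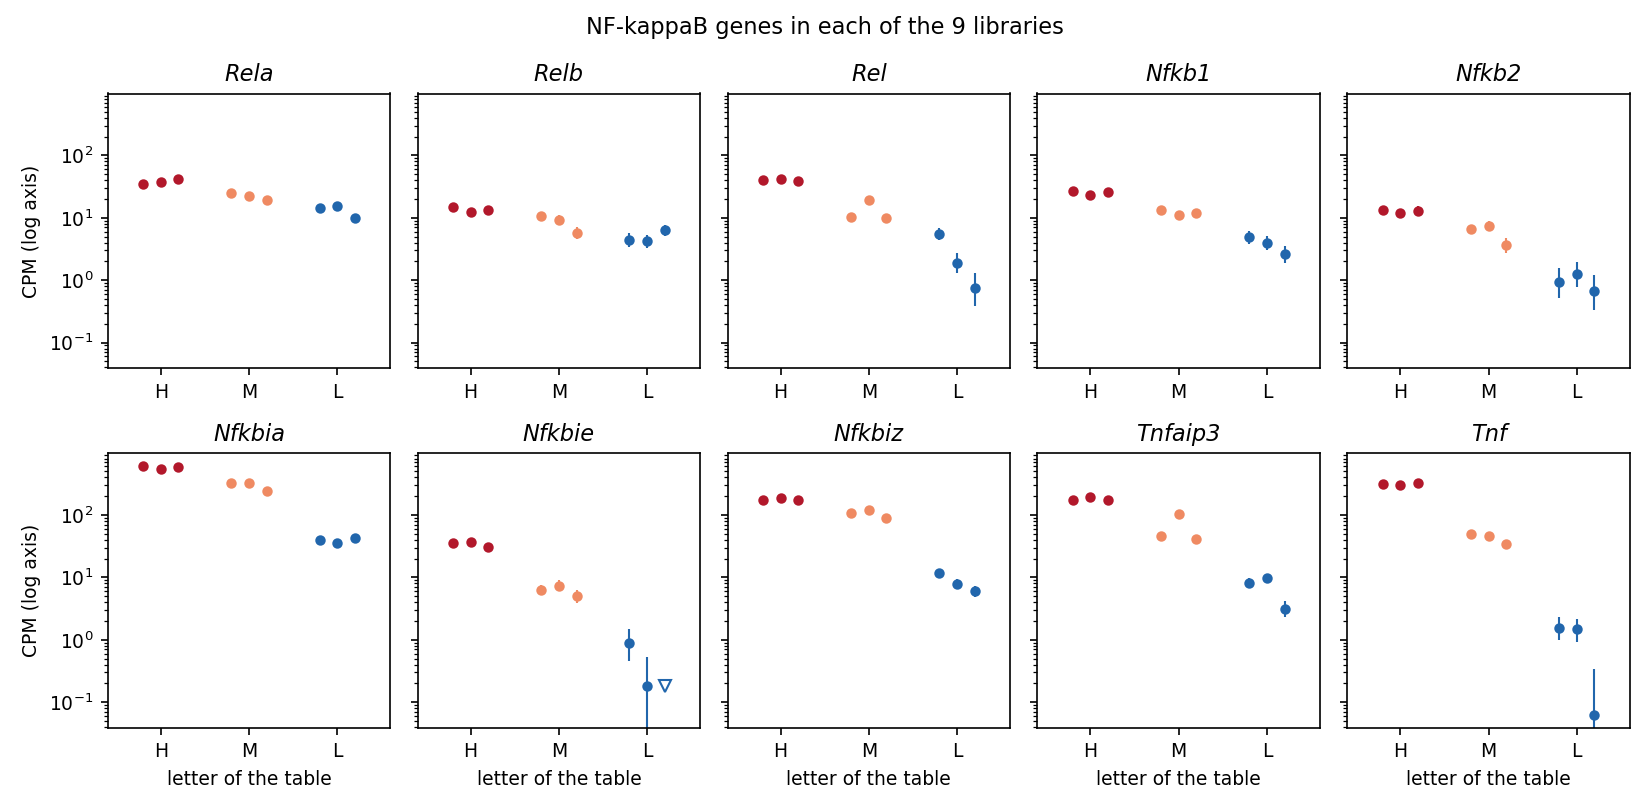
Each panel plots one gene, with the 3 libraries of each letter on the horizontal axis and CPM on a log axis, and bars give the 95% Poisson interval for counting error. The open triangle marks Nfkbie in L3, which had no counts, at 0.185 CPM, the level that 3 counts would give in that library. All 10 genes have the H libraries on top, and the L libraries of Tnf, Nfkbie and Nfkb2 lie at or under 1.55 CPM.

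Several of these genes are themselves known NF-kappaB targets, so their promoters were searched for the kappaB consensus, on both strands, from 250 bases before to 50 bases after each RefSeq start. RefSeq promoters (build GRCm38.p6, the assembly of mm10) were at hand for 7 of the 10: Rela, Rel, Nfkb2, Nfkbia, Nfkbie, Tnfaip3 and Tnf. Relb, Nfkb1 and Nfkbiz are not in the table. The consensus was found in 4 of the 7, Nfkbia, Tnfaip3, Rel and Nfkb2, and in 6.55% of the 27025 genes with a promoter. The windows of Rela, Nfkbie and Tnf did not hold it. A looser form, which fixes the outer guanines and cytosines and leaves the bases between them free, stood in all 7 and in 53.5% of genes. For the 4 genes with the consensus, stretches that hold it are printed so that the sites can be compared letter by letter. These stretches run 5′ to 3′ on the strand of the gene, with the match to the consensus in capitals. They are Nfkbia at chr12:55492648-55492767 on the minus strand, Tnfaip3 at chr10:19015411-19015530 on the minus strand, Rel at chr11:23771042-23771071 on the minus strand and Nfkb2 at chr19:46304688-46304717 on the plus strand.
Nfkbia: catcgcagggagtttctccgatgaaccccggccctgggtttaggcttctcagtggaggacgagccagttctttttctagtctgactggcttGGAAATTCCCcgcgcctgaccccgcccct
Tnfaip3: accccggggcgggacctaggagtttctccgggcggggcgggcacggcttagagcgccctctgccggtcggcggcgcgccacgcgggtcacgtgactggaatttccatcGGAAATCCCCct
Rel: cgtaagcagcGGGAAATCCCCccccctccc
Nfkb2: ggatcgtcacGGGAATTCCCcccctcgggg

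Counted from the RefSeq start, with -1 the base before it, the match lay at -29 to -20 in Nfkbia and at -12 to -3 of the upstream start of Tnfaip3, in both on the opposite strand. Rel had a pair of overlapping matches between -92 and -82, also on the opposite strand. Nfkb2 had a palindromic match at -39 to -30, another match at -11 to -2 that is not printed, and a further one near its downstream starts. Stretches of 30 bases are given for Rel and Nfkb2 because the wider window overlaps an annotated exon. The Tnfaip3 stretch lies inside the gene as GENCODE draws it, but in no exon. In these 4 genes the CPM of the lowest H library was between 1.59 (Nfkb2) and 2.06 (Rel) times that of the highest M library. In the 3 without a match the same ratio was 1.40 for Rela, 4.10 for Nfkbie and 6.22 for Tnf. Whether the sites bear on these ratios was not tested, and sites outside the searched windows were not looked for.

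Among the Rel-domain subunits, Rela encodes p65, the transactivating partner of the common p65 and p50 dimer (ENSMUSG00000024927, chromosome 19, 5637483 to 5648130, build mm10). It measured 34.2, 37.3 and 41.1 CPM in H1 to H3, 24.5, 22.0 and 19.4 CPM in M1 to M3, and 14.4, 15.5 and 9.74 CPM in L1 to L3. The letters did not overlap, but the steps were small. The lowest H library was 1.40 times the highest M library (95% interval for counting error 1.22 to 1.60), and the lowest M library 1.25 times the highest L library (1.05 to 1.495).

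Rel encodes c-Rel, a subunit best known from lymphoid and myeloid cells (ENSMUSG00000020275, chromosome 11, 23736847 to 23770970). It measured 41.0, 41.4 and 39.1 CPM in H1 to H3, 10.2, 19.0 and 9.89 CPM in M1 to M3, and 5.52, 1.89 and 0.740 CPM in L1 to L3. Its H values agreed within 1.06-fold, while the L values spread 7.46-fold, the widest spread of the subunits within the L libraries. Between letters, the lowest H library was 2.06 times the highest M library, or 3.83 times without M2, and 7.09 times the highest L library, or 20.7 times without L1. The lowest M library was 1.79 times the highest L library (1.35 to 2.39), or 5.24 times without L1.

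Nfkb1 encodes p105, the precursor of p50 (ENSMUSG00000028163, chromosome 3, 135584655 to 135691547). It measured 27.0, 22.9 and 25.9 CPM in H1 to H3, 13.3, 11.03 and 12.1 CPM in M1 to M3, and 4.84, 3.96 and 2.65 CPM in L1 to L3. Its values spread 1.18-fold in H, 1.21-fold in M and 1.83-fold in L libraries, and none overlapped between letters. In the closest pairs of libraries, H was 1.72 times M (1.45 to 2.04), and M was 2.28 times L (1.71 to 3.05).

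The subunits of the non-canonical branch are Nfkb2, which encodes p100 and through it p52, and its partner Relb. Nfkb2 (ENSMUSG00000025225, chromosome 19, 46304320 to 46312385) measured 13.4, 11.8 and 13.04 CPM in H1 to H3, 6.53, 7.45 and 3.63 CPM in M1 to M3, and 0.942, 1.28 and 0.678 CPM in L1 to L3. The L values rest on 11 to 21 counts. The lowest M library was 2.84 times the highest L library (1.68 to 4.98), or 5.10 times without M3. Nfkb2 shares 299 of its 4584 exonic bases with Psd on the opposite strand, which measured 53.1 to 55.2 CPM in H, 48.3 to 60.9 CPM in M and 79.7 to 122 CPM in L libraries. Nfkb2 also shares 531 exonic bases with AC114539.1, a noncoding gene on the opposite strand that is absent from the counted genes. No source used here gives the strand setting of the counting, so reads in the shared stretches are uncertain.

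Relb (ENSMUSG00000002983, chromosome 7, 19606217 to 19629438) had the narrowest range of the 10. It measured 14.8, 12.4 and 13.1 CPM in H1 to H3, 10.5, 9.24 and 5.74 CPM in M1 to M3, and 4.44, 4.26 and 6.35 CPM in L1 to L3. M3 lay below L3, so the M and L libraries overlapped, with a ratio of 0.905 (0.666 to 1.23) between the lowest M and the highest L library. The ratio was 1.46 without M3 and 1.29 without L3. H2, the lowest H library, was 1.18 times M1, the highest M library. The interval of 0.949 to 1.45 includes 1, so counting error alone covers the gap between this closest pair. It says nothing of the other pairs: every H library lay above every M library, and the ratio of their medians was 1.42.

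To compare levels between genes, the deposited FPKM (fragments scaled by gene length and library total) were used. The 5 subunits summed to 28.3, 28.0 and 29.9 FPKM in H1 to H3, 16.1, 17.0 and 12.4 FPKM in M1 to M3, and 7.62, 7.82 and 5.50 FPKM in L1 to L3. Rela was the largest part of the sum in all 9 libraries. Its share was 44.7% to 50.7% in H, 50.0% to 59.3% in M and 62.4% to 73.4% in L libraries. Rel took 17.5% to 19.8% in H, 8.47% to 15.7% in M and 1.64% to 9.32% in L libraries, and Nfkb2 took 12.9% to 14.4% in H, 9.15% to 14.0% in M and 3.64% to 4.99% in L libraries. The subunit mixture was thus more evenly divided in H than in L libraries.

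**Figure D2:**
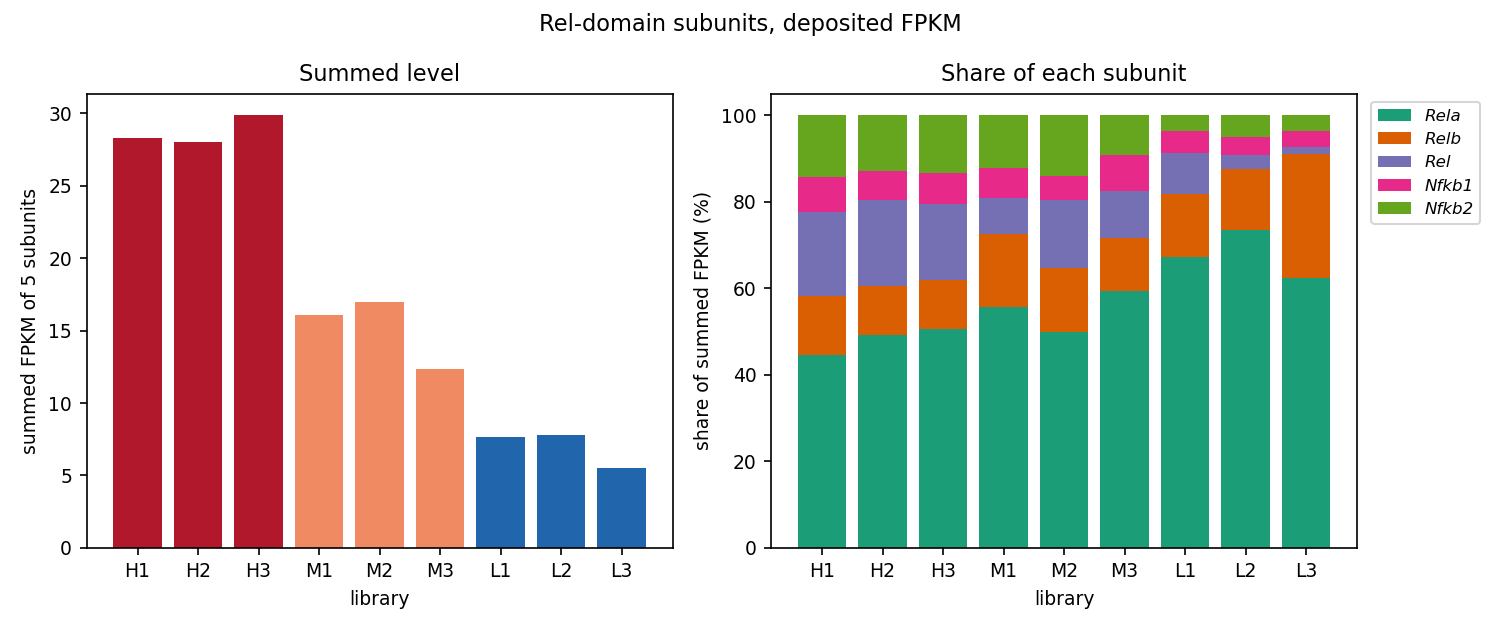
The left panel shows the summed deposited FPKM of Rela, Relb, Rel, Nfkb1 and Nfkb2 as bars for each library, and the right panel the percentage of that sum held by each subunit. The sum is 28.0 to 29.9 FPKM in the H libraries, and the Rela share reaches 73.4% in L2.

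Nfkbia encodes IkappaB-alpha, the principal feedback inhibitor, and was the most abundant of the 10 by FPKM at every letter (ENSMUSG00000021025, chromosome 12, 55489410 to 55492647). It measured 617, 546 and 577 CPM in H1 to H3, 329, 327 and 241 CPM in M1 to M3, and 39.6, 35.1 and 42.9 CPM in L1 to L3. The H and M libraries lay close together and the L libraries far below both. The lowest H library was 1.66 times the highest M library (1.60 to 1.71), while the lowest M library was 5.62 times the highest L library (5.17 to 6.10). The 3 L libraries agreed within 1.22-fold, and their summed microglial markers were 82.5, 153 and 27.7 CPM, whose part in these levels was not tested.

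Nfkbiz encodes IkappaB-zeta, an inducible nuclear protein that can also co-activate genes (ENSMUSG00000035356, chromosome 16, 55811375 to 55838899). It had a pattern near to that of Nfkbia, with 176, 186 and 176 CPM in H1 to H3, 107, 119 and 88.2 CPM in M1 to M3, and 11.6, 7.86 and 6.04 CPM in L1 to L3. The step from M down to L was again the larger one. H1, the lowest H library, was 1.48 times the highest M library (1.39 to 1.57), and the lowest M library 7.58 times the highest L library (6.46 to 8.94).

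Nfkbie encodes IkappaB-epsilon, an inhibitor that is itself induced with delay in feedback (ENSMUSG00000023947, chromosome 17, 45555703 to 45563169). It measured 36.1, 36.7 and 30.3 CPM in H1 to H3, 6.32, 7.38 and 5.02 CPM in M1 to M3, and 0.875 and 0.183 CPM in L1 and L2, with 0 counts in L3. Unlike the other inhibitors it had a wide step between H and M libraries, where the closest pair differed 4.10-fold (3.31 to 5.13). The L values rest on 13, 3 and 0 counts. H3, the lowest H library, was 34.6 times the highest L library (20.0 to 65.6), or 166 times without L1. It was 164 times the level that 3 counts would give in L3, a ratio without an interval for counting error. The lowest M library was 5.73 times the highest L library (3.14 to 11.3), or 27.4 times without L1.

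Tnfaip3 encodes A20, which removes and edits ubiquitin chains on signalling proteins upstream of the IkappaB kinases (ENSMUSG00000019850, chromosome 10, 19000910 to 19015657). It measured 175, 192 and 175 CPM in H1 to H3, 46.2, 103 and 41.0 CPM in M1 to M3, and 8.14, 9.69 and 3.14 CPM in L1 to L3. M2 was more than 2-fold above M1 and M3, the widest spread of the 10 genes within the M libraries, at 2.51-fold. Rel, Nfkb2, Nfkbie and Nfkbiz were also highest in M2 among the M libraries, while Rela, Relb, Nfkb1, Nfkbia and Tnf were highest in M1. The lowest H library was 1.70 times the highest M library (1.59 to 1.81), or 3.78 times without M2, and the lowest M library was 4.23 times the highest L library (3.54 to 5.08).

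Tnf encodes tumour necrosis factor, both an activator and a target of the pathway (ENSMUSG00000024401, chromosome 17, 35199381 to 35202007). It showed the widest differences, with 315, 304 and 324 CPM in H1 to H3, 48.9, 45.7 and 34.6 CPM in M1 to M3, and 1.55, 1.46 and 0.0616 CPM in L1 to L3. The L values rest on 23, 24 and 1 counts. H2, the lowest H library, was 6.22 times the highest M library (5.79 to 6.69) and 196 times the highest L library (131 to 310). The lowest M library was 22.4 times the highest L library (14.7 to 35.6). Its range of 8.26 log2 units was wider than that of 99.7% of genes, against 75.3% for Relb and 84.0% for Rela. By median FPKM of a letter it ranked 2 of 10 in the H and M libraries and 6 of 10 in the L libraries.

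**Figure D3:**
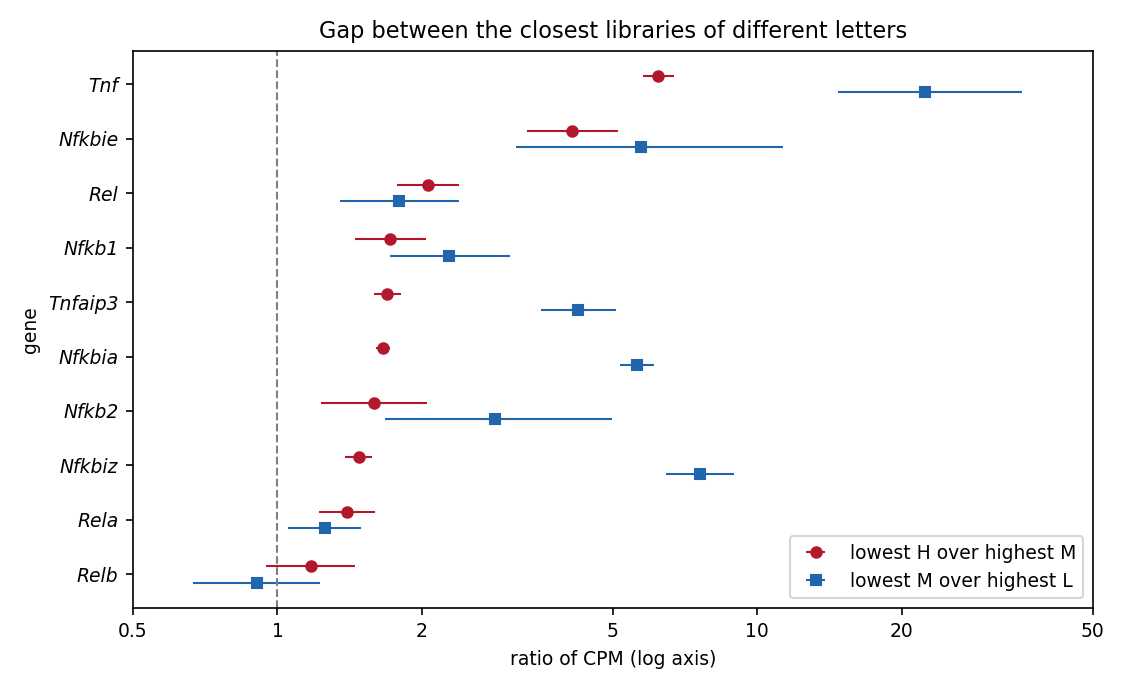
For each gene, circles give the CPM of the lowest H library over the highest M library and squares the lowest M over the highest L library, on a log axis, with 95% intervals for counting error. The dashed line at 1 marks no gap, and Relb is the gene whose square lies left of it, at 0.905. Tnf and Nfkbie have the widest gap between H and M, at 6.22 and 4.10.

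Ratios within a library do not depend on scaling between libraries, and they separated the genes further. For each 100 counts of Nfkbia there were 51.1, 55.7 and 56.2 counts of Tnf in H1 to H3, 14.8, 14.0 and 14.4 in M1 to M3, and 3.91, 4.17 and 0.144 in L1 to L3. The Tnf ratio thus did not overlap between letters, with a spread in M of less than 1 count. The L values were far apart, and the one in L3 rests on 1 count of Tnf. These ratios were chosen after their values were seen, and the share of all genes without such overlap was not computed. Nfkbie stood at 5.25 to 6.73 counts in H and 1.92 to 2.26 in M, and at 2.21, 0.521 and 0 in L1 to L3. By contrast Nfkbiz kept a similar ratio to Nfkbia in H, at 28.5 to 34.1, and M, at 32.3 to 36.6, with 14.1 to 29.4 in L libraries. Rela was at 5.54 to 7.13 in H and 6.74 to 8.06 in M, which overlapped, and at 22.7 to 44.1 in L libraries. Tnfaip3, at 28.3 to 35.2 in H, 14.0 to 31.6 in M and 7.33 to 27.6 in L libraries, overlapped between H and M and between M and L libraries, while H lay just above L, at 28.3 in H1 against 27.6 in L2.

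The same genes were set against the summed microglial and macrophage markers, which were at 17380 CPM or more in H and at 153 CPM or less in L libraries. For each 1000 CPM of these markers, Nfkbia had 32.8, 31.4 and 32.0 CPM in H1 to H3, 51.7, 65.0 and 47.4 CPM in M1 to M3, and 480.4, 229.8 and 1547 CPM in L1 to L3. On this scale 8 of the 10 genes were higher in every L library than in any H or M library. The same held for 92.2% of the 14787 genes, so the count is no more than the background. The exceptions among the 10 were Tnf and Nfkbie. Tnf had 16.7, 17.5 and 18.0 CPM in H1 to H3, 7.66, 9.08 and 6.80 CPM in M1 to M3, and 18.8, 9.58 and 2.22 CPM in L1 to L3. Each H value of Tnf lay above each M value, and its L values spread across both, with L3 resting on 1 count. The share of all genes with H above M on this scale was not computed, nor was this order tried without the C1q genes. Nfkbie had 1.92, 2.11 and 1.68 CPM in H1 to H3, 0.991, 1.47 and 0.986 CPM in M1 to M3, and 10.6, 1.20 and 0 CPM in L1 to L3. Between M and H libraries, 5 of the 10, Rela, Relb, Nfkb1, Nfkbia and Nfkbiz, were higher in every M library relative to these markers, against 90.1% of all genes. With the C1q genes left out of the sum 8 were, against 94.8% of all genes. Which cells held the transcripts was not tested.

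**Figure D4:**
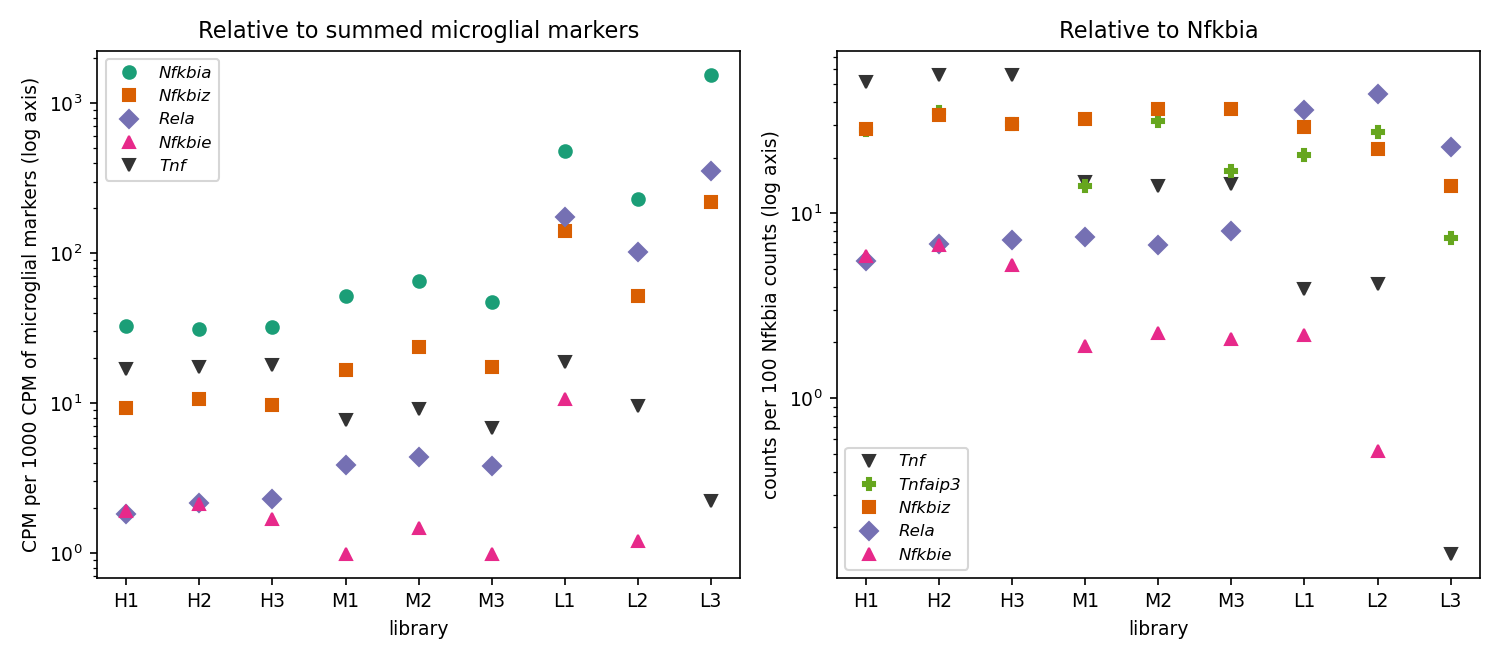
The left panel plots the CPM of 5 genes for each 1000 CPM of summed microglial markers, and the right panel the counts of 5 genes for each 100 Nfkbia counts, on log axes, 1 point per library. Nfkbie in L3 is missing because it had no counts. Nfkbia relative to microglial markers is at 31.4 to 32.8 in H and at 229.8 or more in L. Tnf relative to Nfkbia does not overlap between letters, and its L3 point rests on 1 count.

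Other genes of the pathway were less uniform. Of 12 IkappaB kinases and upstream kinases, 4 had all H libraries above all others and 5 all M above all L. Over all genes averaging 1 CPM or more these shares were 12.7% and 17%. Chuk, the kinase IKK-alpha, measured 43.9 to 48.0 CPM in H, 21.6 to 45.7 CPM in M and 31.7 to 47.1 CPM in L libraries, and Tbk1, a kinase of innate signalling, 81.5 to 85.3 CPM in H, 62.6 to 69.1 CPM in M and 72.9 to 89.1 CPM in L libraries. Both overlapped between H and L. Ikbke, an inducible relative of these kinases, measured 7.24 to 9.67 CPM in H, 0.436 to 1.32 CPM in M and at most 0.0609 CPM in L libraries. Map3k8, a kinase that p105 binds, measured 16.2 to 18.1 CPM in H, 9.96 to 15.3 CPM in M and 0.123 to 1.34 CPM in L libraries.

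Of 19 receptors and adaptors, 18 averaged 1 CPM or more. Among these, 9 had all H libraries above all others and 10 all M above all L, against 12.7% and 17% of all genes. Cd14, a coreceptor for bacterial lipopolysaccharide on myeloid cells, measured 621 to 633 CPM in H, 340.0 to 406 CPM in M and 0.678 to 14.1 CPM in L libraries. Tnfrsf1b, the second receptor for tumour necrosis factor, measured 29.7 to 32.9 CPM in H, 11.1 to 14.1 CPM in M and at most 0.426 CPM in L libraries. Birc2, a ubiquitin ligase of the receptor complex, overlapped throughout, at 35.6 to 46.0 CPM in H, 34.3 to 42.2 CPM in M and 36.0 to 48.0 CPM in L libraries.

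Of 14 other inhibitors and ubiquitin regulators, 13 averaged 1 CPM or more, with 4 above all others in H and 1 below. Of all genes, 12.7% were above and 11.8% below. The deubiquitinase Cyld measured 73.0 to 80.0 CPM in H, 64.7 to 83.0 CPM in M and 68.8 to 91.3 CPM in L libraries, and Tax1bp1, an adaptor of A20, 183 to 208 CPM in H, 224 to 247 CPM in M and 232 to 297 CPM in L libraries. Tax1bp1 was the one with the H libraries lowest. Nfkbid, an atypical nuclear IkappaB, measured 105 to 120.2 CPM in H, 59.2 to 149 CPM in M and 3.23 to 6.46 CPM in L libraries, and its highest library was M2. Bcl3, another atypical IkappaB, measured 10.8 to 11.6 CPM in H, 1.24 to 3.71 CPM in M and at most 0.0609 CPM in L libraries.

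Of 18 inducible targets, 10 had all H libraries above all others and 14 had all M above all L, against 12.7% and 17% of all genes. Their median range was 5.42 log2 units, against 1.04 over all genes. Icam1, an adhesion molecule for leukocytes, measured 142, 129 and 140.1 CPM in H1 to H3, 4.53, 16.9 and 3.85 CPM in M1 to M3, and 0.0673, 0.122 and 0.185 CPM in L1 to L3. Cd83, an activation marker of antigen-presenting cells, measured 949 to 1038 CPM in H, 307 to 483 CPM in M and 16.2 to 41.8 CPM in L libraries. Vcam1, another adhesion molecule, measured 153 to 180.2 CPM in H, 179.7 to 256 CPM in M and 0.670 to 1.11 CPM in L libraries. Its highest library was M2, and its H and M libraries overlapped. Sod2, the mitochondrial superoxide dismutase, is a target that most cells express, and it measured 181 to 192 CPM in H, 200 to 230.2 CPM in M and 207 to 234 CPM in L libraries. Its H libraries lay below all others, which held for 1 of the 18 targets and for 11.8% of all genes.

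Over 9630 genes averaging 10 CPM or more, those most like each of the 10 were found by the root mean square difference of their centred log2(CPM + 1) values over the 9 libraries. The nearest to Tnf were Cx3cr1, the fractalkine receptor of microglia, at 0.271 log2 units and Tlr2, at 0.277. Nfkbia was nearest to Bst2 at 0.175 and Gusb at 0.218, and Nfkbiz to Gm8995 at 0.238 and Dnase2a at 0.245. Nfkbie had Il18bp at 0.261 and H2-T23 at 0.315, and Rel had Il18bp at 0.416 and Csrnp1 at 0.423. Tnfaip3 had Fgd2 at 0.316 and Tcirg1 at 0.365. Rela was nearest to Aga at 0.109 and Lamp1 at 0.123, both lysosomal, Relb to Ppp6r1 at 0.150 and Csf2ra at 0.157, Nfkb1 to Reep3 at 0.119 and Abhd4 at 0.134, and Nfkb2 to Gna12 at 0.180 and Sgpl1 at 0.205. Among the 10 genes themselves, Nfkb1 and Nfkb2 were the most alike pair at 0.307, followed by Rela and Relb at 0.333 and Nfkbia and Nfkbiz at 0.353, and Relb and Tnf the least alike at 2.57.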

How the data were processed

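RNA of 9 libraries from sorted hippocampal cells was analysed from gene tables. Each table, as deposited by the authors, pairs a raw count with an FPKM value for 51912 Ensembl genes, per the file headers. The submitters' processing notes name build mm10 and the tools HTSeq 0.6.1, HISAT2 2.0.1, Trimmomatic 0.30 and bcl2fastq 2.17.1.14. Their order, the annotation release and the strand setting are not stated there. All 9 libraries were left unassigned, 0 of 9 having a group in the labels, so no differential test was run. GENCODE release M21 gave coordinates and symbols, matching 51633 gene identifiers (99.5%). TMM factors (edgeR 4.0.16, R 4.3.3) gave the CPM values, to which a pseudocount of 1 CPM was added before taking log2, and genes averaging under 1 CPM were not described. Poisson and binomial intervals of 95% and the limit of 3 counts for a count of 0 cover counting error only.

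A chi-square over genes holding 10 or more counts in a pair compared the libraries pairwise. The Python 3.11.15 scripts (numpy 2.4.6, scipy 1.17.1, pandas 2.3.3) were tested on simulated data. The genes named are the 10 members, the 2 most abundant and the 2 widest-ranging genes of each pathway list, and the 2 nearest genes to each member, while marker lists are given as sums. The members, lists and rules were chosen with earlier results of these data known, and the ratios to Nfkbia and the subunit shares after their values were seen. Settings also tried were DESeq2 1.42.0 size factors, raw totals, totals less the mitochondrial genes, other minimums and pseudocounts, a microglial sum without C1q genes, and leaving out each library. Protein sequences were not used here.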

Additional observations from a re-analysis of the deposited data

How the results depend on the processing

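The count of members with all H libraries above all others was 10 of 10 under each scaling and without each library, and 8 of the 8 averaging 10 CPM or more. The counts of 9 for M above L and for the whole order were 9 to 10 when each library was left out and 8 of 8 with the 10 CPM minimum. Relb accounted for the change, since its ratio of the lowest M to the highest L library ran from 0.905 to 1.46 when each library was left out. The background shares were lower with no minimum on level, where many more genes at very low counts enter, at 8.05% for H above all others, 10.7% for M above L and 2.78% for the whole order. With a pseudocount of 5 CPM, which compresses low values, the share of genes with a 4-fold range was 6.27%, and the count of members was 7, as Nfkb2 had a range of 1.69 log2 units there. The count was 8 or 9 under the other settings, with Rela entering at 2.02 to 2.04. Relative to microglial markers without the C1q genes, 8 in place of 5 members were higher in M than in H libraries, and the cause was not tested. The median gene differed by at most 0.057 log2 units between letters under any scaling. Levels of Nfkbie, Tnf, Rel and Nfkb2 in L libraries rest on few counts, so depth limits how far their ratios to L can be read. No paired analysis was possible because the labels give no groups.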
